A study of Cervus nippon with 4 samples.

Results

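The juvenile testis genes described here were present in the testis of Sika Deer at 1 year and nearly absent at 3, 5 and 10 years. They were the 200 genes with the highest level at 1 year among those with an FPKM of at least 5 in the library Tst_1 and below 1 in each of the libraries Tst_2, Tst_3 and Tst_4. FPKM counts fragments per kilobase of gene, with library size taken into account, so levels of different genes can be compared per length. In all, 3626 of the 629520 genes listed in the deposited files met both thresholds, and the 200 members made up 5.52% of these. The thresholds used all 4 libraries, so the high level at 1 year and the low levels afterwards describe the choice and are not results.

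Testes came from the Shuangyang breed of Sika Deer (Cervus nippon), without any treatment named in the labels. Tst_1 was from 1-year-old deer (juvenile group), Tst_2 from 3-year-old deer (adolescence group), Tst_3 from 5-year-old deer (adult group) and Tst_4 from 10-year-old deer (aged group). For each age, total RNA from the testes of 3 animals was mixed before 1 poly-A library was built, so the spread between animals is not known and no test or error can be given for any value. Age, the animals pooled and the library cannot be told apart in any comparison. The files listed between 317205 genes in Tst_4 and 422330 in Tst_1. The study gives the reads of each library, but the reads behind the FPKM value of a single gene are not known here.

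The mammalian testis changes its make-up between the juvenile and the mature stage. In the juvenile gland the seminiferous tubules hold mainly immature Sertoli cells and spermatogonia, set in a large interstitium with Leydig, peritubular and vessel cells. At puberty the Sertoli cells stop dividing, and spermatocytes and spermatids come to fill the tubules. In whole tissue, fewer cells of a type and less RNA per cell cannot be told apart. The files do not pair their identifiers with gene names or sequences, so neither the function of the members nor the markers of testis cell types could be looked up, and the tissue label could not be checked against its markers. For this reason only the first 2 members are given by identifier, and the others by their rank in Tst_1.

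Levels in Tst_1 ran from an FPKM of 17.26 to 439.58, with a median of 22.2. Few members were abundant: 5 reached 100 FPKM, 21 reached 50 FPKM, 59 reached 30 FPKM and 134 reached 20 FPKM. The first 5 members held 16.2% of the FPKM summed over all members, and the first 10 held 23.3%. Together the members took 0.765% of all FPKM in Tst_1. The highest of them stood at place 124 among all genes of Tst_1, and 14 were among the 1000 highest genes of that library. None of the members was thus at the very top of the library, but 113 were among its 5000 highest genes, of 422330 listed. Their level follows in part from the ranking in Tst_1 and from the fixed limit of 1 FPKM in the later libraries.

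**Figure D1:**
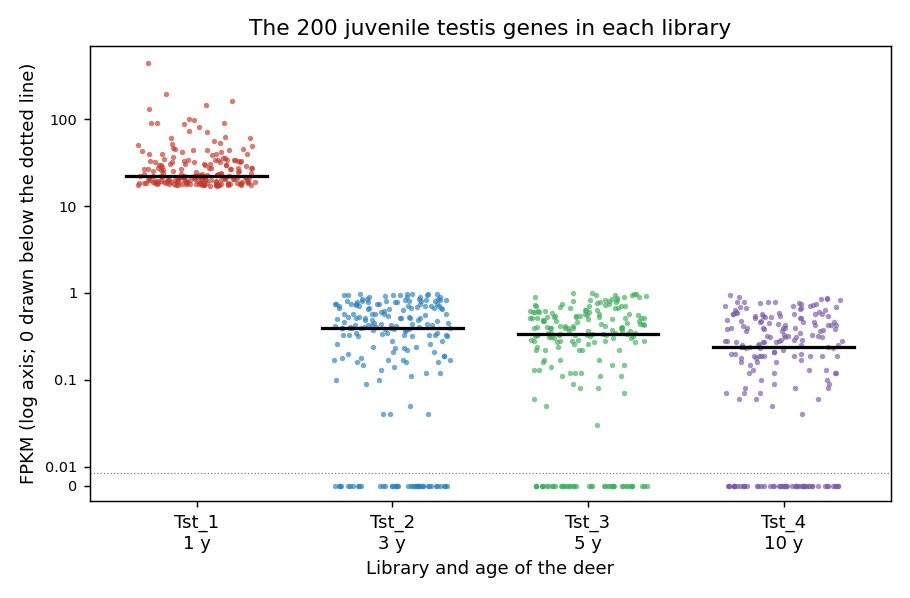
FPKM of the 200 juvenile testis genes in the 4 libraries, on a log axis. Each point is 1 gene, the horizontal bars are medians, and genes listed at 0 are drawn below the dotted line. Points lie between 17.26 and 439.58 in Tst_1 and, because of the thresholds, below 1 in the later libraries, where the medians were 0.400, 0.340 and 0.240.

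The member with the highest level was c653581_g5, with an FPKM of 439.58 at 1 year, 0.12 at 3 years, 0.09 at 5 years and 0.09 at 10 years. Its level in Tst_1 was 3663 times that of its highest later library, the greatest ratio among the members. The next was c618832_g1, with an FPKM of 197.70 at 1 year, 0.04 at 3 years, 0.34 at 5 years and 0.04 at 10 years. Its remaining signal was thus higher at 5 years than at 3 and 10 years, although all these values were low.

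Rank 3 stood at 163.85 FPKM at 1 year, 0.50 at 3 years, 0.39 at 5 years and 0.19 at 10 years. Rank 4 reached 146.40 FPKM in Tst_1 and was listed at 0 in Tst_2, Tst_3 and Tst_4. Rank 5 was at 129.92 FPKM at 1 year, 0.67 at 3 years, 0.34 at 5 years and 0.64 at 10 years. These members, all above 100 FPKM at 1 year, differed in their later profile, with a stepwise decline in rank 3, no listed signal in rank 4, and in rank 5 a level at 10 years close to that at 3 years.

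At rank 6 the FPKM was 99.82 at 1 year, 0.53 at 3 years, 0.41 at 5 years and 0.36 at 10 years. For rank 7 it was 99.29 at 1 year, 0.38 at 3 years and 0.53 at 5 years, with no listing at 10 years. Rank 8 had 91.59 FPKM in Tst_1 and was listed at 0 in the 3 later libraries. Among these, only rank 6 was listed in every library. For rank 9 the FPKM was 91.34 at 1 year, 0.41 at 3 years and 0.55 at 10 years, with 0 at 5 years. Rank 10 had 89.80 FPKM in Tst_1 and 0.36 in Tst_3, and was listed at 0 in Tst_2 and Tst_4. At levels this low a value, or a 0, may rest on few reads.

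Members further down the order were lower in Tst_1, by the way they were ranked. Rank 50 had 32.68 FPKM at 1 year, 0.51 at 3 years, 0.40 at 5 years and 0.39 at 10 years. Rank 100 had 22.25 FPKM at 1 year, 0.52 at 3 years, 0.68 at 5 years and 0.24 at 10 years. Rank 150 had 19.11 FPKM at 1 year, 0.45 at 3 years and 0.60 at 10 years, and was listed at 0 at 5 years. From ranks 1 to 50 to ranks 151 to 200 the median FPKM in Tst_1 went from 44.8 to 18.1, which the ranking fixes, and that in Tst_2 went from 0.460 to 0.370. The corresponding medians were 0.345 and 0.285 in Tst_3, and 0.255 and 0.195 in Tst_4. As all later values lie below 1 FPKM by choice, these medians are not a comparison of the juvenile with the later levels.

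At the lower edge of the list, rank 199 had an FPKM of 17.27 in Tst_1 and rank 200 had 17.26, against 17.18 and 17.16 for the next genes that met both thresholds, which were left out. At the upper limit for the later libraries, the members nearest to it had a highest later FPKM of 0.99, and the nearest genes left out had 1.00. A gene left out in this way had an FPKM of 129.45 at 1 year, 0.98 at 3 years, 1.00 at 5 years and 0.31 at 10 years, so that a difference of 0.01 kept it from rank 6. Of the 6824 genes at or above 17.26 FPKM in Tst_1, another 278 had a highest later FPKM of 1 to 2, and 5455 stayed at 5 or more in at least 1 later library.

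A gene was called lower when the log2 ratio of (FPKM + 0.1) between a pair of libraries was below -1 and the greater FPKM of the pair exceeded 0.3. By this criterion all 200 members were lower in Tst_2 vs. Tst_1, Tst_3 vs. Tst_1 and Tst_4 vs. Tst_1, which the thresholds fix. Of all genes tested, 53.4% were called lower at 3 years, 49.8% at 5 years and 55.4% at 10 years, each against 1 year. These comparisons share the library Tst_1. The median log2 ratio of the members was -5.87 at 3 years, -5.91 at 5 years and -6.32 at 10 years vs. 1 year, against -1.27, -0.99 and -1.45 over all genes tested. Among the 172 members listed in at least 1 later library, the level in Tst_1 was between 18.1 and 3663 times the highest later level, with a median of 42.4, and 31 members exceeded 100 times.

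How common the pattern was depended on the level in Tst_1. Among genes of 5 to 10 FPKM in Tst_1, 20.4% were below 1 FPKM in all 3 later libraries. The share was 7.26% between 10 and 20 FPKM, 2.83% between 20 and 50 FPKM, 1.79% between 50 and 100 FPKM and 0.825% at 100 FPKM or more, where it came to 5 of 606 genes. The members, taken from the top of this range, therefore belonged to levels at which the pattern was rare. A fixed limit of 1 FPKM asks for a greater fold difference from a gene that starts higher.

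The same thresholds were then applied to each library in turn. At 5 FPKM or more in 1 library and below 1 FPKM in the other 3 there were 3626 genes at 1 year, 322 at 3 years, 564 at 5 years and 620 at 10 years. These were 13.0% of the genes at 5 FPKM or more at 1 year, 1.38% at 3 years, 2.40% at 5 years and 2.73% at 10 years. At the level of the members, 17.26 FPKM or more, there were 200 genes at 1 year, 13 at 3 years, 3 at 5 years and 9 at 10 years. Tst_1 was set against 3 libraries of later ages, whereas each later library was set against 2 other later ages and Tst_1, so the counts are not on equal terms. The order turned when FPKM was divided by trimmed-mean factors: 2224 genes at 1 year, 1685 at 3 years, 2708 at 5 years and 3300 at 10 years. After median-of-ratios factors Tst_1 had 1237 genes, Tst_2 476, Tst_3 539 and Tst_4 1491. An excess of such genes in Tst_1 over Tst_4 was therefore found on the deposited scale and on neither of the scaled ones.

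**Figure D2:**
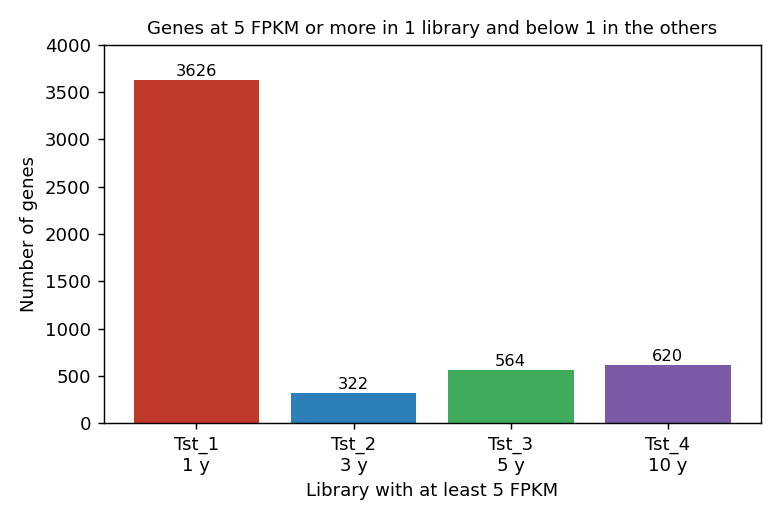
Number of genes at 5 FPKM or more in the library on the horizontal axis and below 1 FPKM in the other 3, on the deposited scale. The bars stand at 3626, 322, 564 and 620 from the youngest to the oldest age; after trimmed-mean scaling Tst_3 and Tst_4 exceeded Tst_1.

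The opposite pattern, below 1 FPKM in Tst_1 and at 5 FPKM or more in all 3 later libraries, was met by 4377 genes, more than the 3626 that went the other way. After trimmed-mean scaling these were 6451 against 2224 genes, and after median-of-ratios scaling 5198 against 1237. It was also reached at higher levels, with 1433 genes at or above 17.26 FPKM in all 3 later libraries and a highest FPKM of 26561, against 439.58 for the members.

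To obtain values that the choice had not used, the first 200 genes were chosen again without 1 of the later libraries, and their FPKM was read in the library left out. When Tst_4 was left out, 179 of the 200 genes were below 1 FPKM in it. When Tst_3 was left out, 159 were below 1 FPKM in it, and when Tst_2 was left out, 132. Of all genes at the same level or higher in Tst_1, 7.57% were below 1 FPKM in Tst_4, 5.12% in Tst_3 and 3.71% in Tst_2. Most genes chosen in this way were thus low in the library left out as well. The genes that were low in it met all thresholds, so they are members themselves. The shares over all genes were not limited to genes low in the other later libraries, so the 2 sets are not on equal terms. The median FPKM in the library left out was 0.275 in Tst_4, 0.440 in Tst_3 and 0.675 in Tst_2.

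Low levels were least often repeated in the adolescence library. Among all genes at the same level or higher in Tst_1, the share below 1 FPKM had the same order. It was 3.71% at 3 years, 5.12% at 5 years and 7.57% at 10 years. The order alone therefore does not set the chosen genes apart. Of the genes chosen from Tst_1, Tst_3 and Tst_4, 68 had an FPKM of 1 or more in Tst_2, and 5 had at least 5. The order of the 3 libraries was the same after trimmed-mean scaling, with 121 genes below 1 at 3 years, 165 at 5 years and 170 at 10 years, and after median-of-ratios scaling, with 125, 172 and 173. The libraries were nonetheless single pools, and whether another pool of adolescent deer would show the same was not tested.

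Leaving out Tst_2 also brought up genes whose values were chosen for display after they were seen. The highest reached 252.67 FPKM in Tst_1 and 137.50 in Tst_2, and was listed at 0 in Tst_3 and Tst_4. The next, in another identifier cluster, had 250.19 FPKM in Tst_1 and 118.21 in Tst_2, and was also listed at 0 in Tst_3 and Tst_4. A further gene had 20.13 FPKM in Tst_1 and 9.17 in Tst_2 with the same zeros. Their levels in Tst_1 were 1.84, 2.12 and 2.20 times those in Tst_2. The first was the only one of the 200 genes that was not more than 2-fold lower in Tst_2 than in Tst_1. The highest values were 6.77 FPKM when Tst_3 was left out and 5.60 FPKM when Tst_4 was left out.

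**Figure D3:**
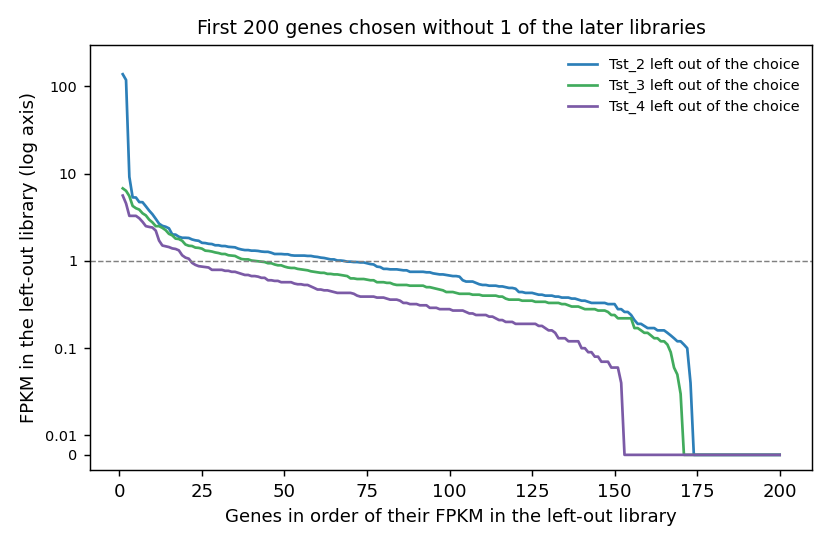
FPKM, on a log axis, of 3 sets of 200 genes in the later library that was not used to choose them, each set ordered from its highest to its lowest value. The dashed line marks 1 FPKM, and the curves cross it after 68 genes at 3 years, 41 at 5 years and 21 at 10 years; the curve for Tst_2 begins at 137.5.

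The thresholds set only an upper limit on the later libraries, and below it the members differed. In Tst_2 39 members were listed at 0, in Tst_3 42 and in Tst_4 52. Of the other genes meeting the thresholds, 32.0% were at 0 in Tst_2, 36.6% in Tst_3 and 38.3% in Tst_4. Over all genes at 5 FPKM or more in Tst_1 these shares were 5.44%, 6.68% and 7.79%. The order of the libraries was the same in these groups, so it does not set the members apart. All 3 later libraries listed 137 members, 21 were missing from 1 library, 14 from 2 and 28 from all 3. Among the 3426 genes that met the thresholds at a lower level in Tst_1, the share at 0 in all 3 later libraries was 26.1%, against 14.0% of the members. Most members thus kept a small amount of signal at every later age.

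The 28 members with no listed signal after 1 year included ranks 4 and 8 and had FPKM values of 17.27 to 146.40 in Tst_1. Their median there was 21.9, close to the 22.3 of the remaining 172 members. They differed from the other members in their identifiers. Of the 28, 15 (53.6%) were the only listed gene of their cluster, against 48 of 172, or 27.9%, of the other members. This was not particular to them, since only 45.2% of the other genes meeting the thresholds had another listed gene in their cluster. Clusters are explained with the identifiers further on.

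The remaining signal was spread unequally over the later ages. Summed over the members, FPKM was 81.97 at 3 years, 72.07 at 5 years and 56.32 at 10 years. Of the 172 members listed in a later library, 87 had their highest later level at 3 years, 50 at 5 years and 31 at 10 years, and 4 were tied. These were 51.8%, 29.8% and 18.5% of the members without a tie. Among the other genes meeting the thresholds, 41.5% were highest in Tst_2, 38.9% in Tst_3 and 19.6% in Tst_4. Genes below 1 FPKM in all 4 libraries had another order, with 30.8% in Tst_2, 42.5% in Tst_3 and 26.7% in Tst_4. Tst_2 remained the most frequent place of the highest later level after trimmed-mean scaling, with 103 members against 32 in Tst_3 and 37 in Tst_4, and after median-of-ratios scaling, with 94, 34 and 44, while Tst_3 and Tst_4 changed places. The scaled counts were taken for the members only, without the other groups beside them. The trimmed-mean factor was lowest for Tst_2, so that scaling raised Tst_2 most in every gene.

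A steady decline over the later ages, with Tst_2 above Tst_3 and Tst_3 above Tst_4, was seen in 51 of these 172 members, or 29.7%. The share was 22.2% among the other genes meeting the thresholds and 7.29% among genes below 1 FPKM in all 4 libraries. The reverse order was seen in 12 members, or 6.98%, against 7.19% and 5.85%. These shares were taken on the deposited scale only, and both scalings changed the places of Tst_3 and Tst_4 in the counts of the highest later level. With single libraries the shares carry no estimate of error, and genes of 1 library are not independent of each other.

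**Figure D4:**
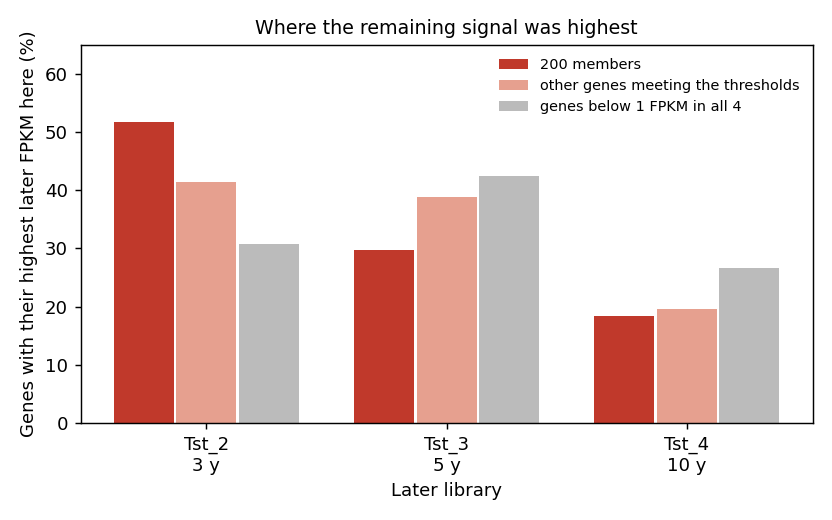
Percentage of genes whose highest FPKM among the later libraries was in Tst_2, Tst_3 or Tst_4, for the members, for the other genes meeting the thresholds and for genes below 1 FPKM in all 4 libraries. Tst_2 held 51.8% of the members and 30.8% of the genes that were low throughout. After both scalings Tst_2 stayed first for the members, the only group counted on those scales.

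Calls between the later libraries went mainly towards lower values at 10 years. In Tst_4 vs. Tst_2, 136 members passed the filter, of which 39 were called lower and 9 higher, or 28.7% and 6.62%. Over all genes tested 27.5% were lower and 24.3% higher, and over genes below 1 FPKM in each later library 31.1% were lower and 26.4% higher. The share of members called lower was thus near that of all genes, and it was calls in the higher direction that were few. In Tst_4 vs. Tst_3, 31 of 128 members were lower and 9 higher, or 24.2% and 7.03%, where all genes gave 29.8% and 21.7%, and low genes 33.9% and 23.0%. In Tst_3 vs. Tst_2, 19 of 148 members were lower and 16 higher, or 12.8% and 10.8%, against 23.0% and 28.8% for all genes, and, for low genes, 31815 lower and 40666 higher of 127062. Trimmed-mean scaling moved this last pair to 40 lower and 17 higher, so its balance depends on the scaling. The share of calls that were higher went from 45.7% to 29.8% in the members. Over all genes it also fell, from 55.5% to 45.9%.

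The identifiers give a further property that the choice did not use. They consist of a cluster number and a gene number, the form in which a de novo assembler names genes built from connected reads, although the assembler is not given in the sources used here. Genes of 1 cluster may be parts, copies or relatives of the same gene, and reads can be divided among them. Over all libraries there were 493639 clusters. The members came from 189 of them, as 178 clusters held 1 member and 11 held 2.

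Members of the same cluster did not always keep the same later signal. Ranks 4 and 36 shared a cluster, with an FPKM of 146.40 and 38.81 in Tst_1, and the latter had 0.16 in Tst_2, 0.22 in Tst_3 and 0 in Tst_4. Ranks 6 and 8 shared another, with 99.82 and 91.59 in Tst_1, but only the former was listed in the later libraries. Ranks 3 and 14 had 163.85 and 72.23, and both were listed at every age. Ranks 28 and 35 had 44.53 and 39.37, and neither was listed after 1 year. These pairs share a source and are not independent cases.

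In 137 of the 200 members (68.5%) the cluster held at least 1 other listed gene, against 77.6% of the 6624 other genes at the same level in Tst_1. Among the other genes meeting the thresholds, which were lower in Tst_1, it was 45.2%. When FPKM was summed over all genes of the cluster, the member included, the sum was more than 2-fold lower than in Tst_1 in all 3 later libraries for 193 members. The thresholds fix this count in part, as the sum holds the member, and fully for the 63 members without another gene. Among the 137 members with other genes it held for 130. For 108 members the whole cluster stayed below 1 FPKM in each later library, 63 of them because the cluster held no other gene. In the remaining 92 the summed FPKM of the cluster reached 1 in at least 1 later library.

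The clusters of the 2 highest members held little besides the member. The cluster of c653581_g5 had 3 more genes, with an FPKM of 1.95, 2.12 and 1.75 in Tst_1, of which only 1 was listed later, at 0.02 in Tst_4. The cluster of c618832_g1 had 1 more gene, at 2.12 FPKM in Tst_1 and listed at 0 afterwards. In Tst_1 the member stood 207 times above the highest of its companions in the first cluster and 93.3 times in the next, and no gene of either cluster reached 1 FPKM at later ages. This did not extend to all the members that followed. For rank 5 the other genes summed to 3.43 FPKM in Tst_1 against 129.92 for the member, and rank 7 had no other gene in its cluster. Other members had companions at higher levels. The other genes in the cluster of rank 3, rank 14 among them, summed to 221.47 FPKM at 1 year, 7.16 at 3 years, 9.04 at 5 years and 6.52 at 10 years, so that at 1 year they exceeded the member itself. In Tst_1 the other genes summed to 61.13 FPKM for rank 4, with rank 36 included, and to 100.06 FPKM for rank 6, with rank 8 included.

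To set the members beside other genes on equal terms, companions were defined as the genes of a cluster below 17.26 FPKM in Tst_1, and their FPKM was summed once per cluster. In the clusters of the members, 122 of 189 had companions, and these were more than 2-fold lower in all 3 later libraries in 76 (62.3%) and more than 2-fold higher in 8 (6.56%). In 6013 clusters of other genes at the level of the members, 4487 had companions, and 45.6% were lower and 7.62% higher. In the clusters of the members the median log2 ratio of companions was -2.14 at 3 years, -2.09 at 5 years and -2.33 at 10 years vs. 1 year. It was -1.26, -1.20 and -1.50 in the other clusters. After trimmed-mean scaling the shares lower in all 3 were 52.5% and 28.2%, and after median-of-ratios scaling 51.6% and 26.7%. The companions of members were thus lower more often than those of other genes at their level under each scaling, as a description without a test. They were not set beside companions of the other genes meeting the thresholds. Where reads are divided among the genes of a cluster, companions are not a separate measurement.

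**Figure D5:**
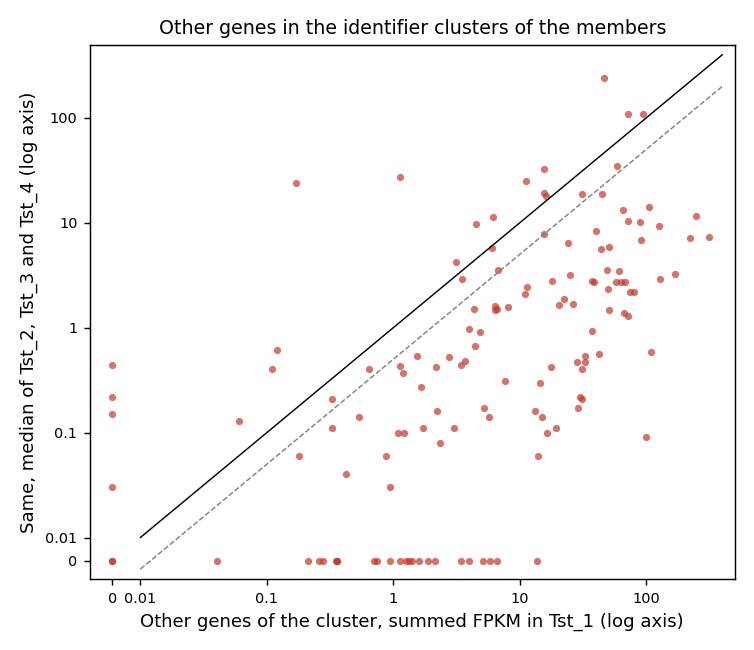
Summed FPKM of the other genes in the identifier cluster of each of 137 members, in Tst_1 on the horizontal axis and as the median of Tst_2, Tst_3 and Tst_4 on the vertical axis, both on log axes with 0 drawn at the edge. The solid line marks equal levels and the dashed line a 2-fold lower level. In all 3 later libraries 98 of the 137 (71.5%) were more than 2-fold lower and 6 (4.38%) more than 2-fold higher. For other genes at the same level in Tst_1 these shares were 47.5% and 6.67%. They were 61.4% and 4.71% for the other genes meeting the thresholds, so most of the difference from genes at the same level was shared by these. For the 22 members that share a cluster with another member the sum includes that member, whose low later level the thresholds fix.

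In 7 members the cluster as a whole was not more than 2-fold lower in all 3 later libraries. Rank 86 had an FPKM of 24.12 at 1 year, 0.44 at 3 years, 0.30 at 5 years and 0.84 at 10 years, while the other 3 genes of its cluster summed to 0.17, 25.65, 24.11 and 18.33. The cluster total therefore changed little, from 24.29 to 26.09, 24.41 and 19.17. Rank 169 had 18.26 FPKM at 1 year, 0.89 at 3 years and 0 at 5 and 10 years, while the other genes summed to 1.14, 19.03, 27.36 and 34.04. In these clusters the member was the higher gene at 1 year and other genes were the higher ones later.

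Rank 39 had an FPKM of 35.74 at 1 year, 0.33 at 3 years, 0.86 at 5 years and 0.73 at 10 years, in a cluster whose other genes went from 46.39 to 237.94, 224.38 and 276.20. Ranks 23 and 89 lay in 1 cluster, with totals of 117.54 at 1 year, 130.72 at 3 years, 98.83 at 5 years and 110.13 at 10 years, although the members themselves had 46.30 and 23.54 in Tst_1 and at most 0.40 later. For rank 68 the cluster total was 43.29 at 1 year, 32.27 at 3 years, 32.49 at 5 years and 36.15 at 10 years, and for rank 95 it was 34.12, 30.36, 22.01 and 25.02. For these members a low value at later ages went with a cluster that kept much of its signal.

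A single gene with the opposite pattern, below 1 FPKM in Tst_1 and at 5 FPKM or more in all 3 later libraries, was found in the clusters of 4 members, those of rank 38, 39, 86 and 169. The partner of rank 39 had an FPKM of 0.94 at 1 year, 103.06 at 3 years, 95.37 at 5 years and 130.50 at 10 years. The partner of rank 86 had 0.17, 19.71, 18.92 and 15.98 in the same order, and that of rank 169 had 0, 15.93, 25.47 and 33.84. The partner of rank 38 had 0.39, 8.95, 8.59 and 8.79. Of the members with other genes in their cluster 2.92% had such a partner, and of the other genes at the same level 2.57%.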

How the data were processed

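Poly-A RNA of testis was sequenced on an Illumina HiSeq2500 from strand-specific libraries, 1 per age, each from 3 pooled animals. The authors deposited FPKM per gene for each library, to 2 decimals. For the assembler, the aligner and the counter, no name is given in the sources read. Libraries were grouped by the age in the labels. A gene missing from a file was taken as 0. With 1 library per age no test was run, and the design assumed none. Log2 ratios used a pseudocount of 0.1, so they understate the change of low genes. Factors were a trimmed mean of log2 ratios to Tst_1 (30% of ratios and 5% of levels left out at each end) and a median of ratios over genes listed in all libraries. Their log2 values were -0.86 and -0.19 for Tst_2, -0.53 and 0.01 for Tst_3, -0.78 and -0.28 for Tst_4, and 0 and 0.61 for Tst_1. Identifiers were named by rule: the 2 highest members, others by rank. The members, measures and lists were chosen with earlier results of these data known. The comparison of cluster companions was added after values had been seen. The study states the reads of each library, but FPKM does not give the reads of a gene, so no counting intervals are given. Scripts were tested on simulated data. Python 3.11.15, numpy 2.4.6, pandas 2.3.3 and matplotlib 3.10.9 were used.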

Additional observations from a re-analysis of the deposited data

How the results depend on the processing

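No paired analysis was possible because there was only 1 library for an age, and no replicate could be left out. The median log2 ratios of the members stayed negative under every setting tried, which the thresholds fix, so this is not a result. The order of the libraries in the number of genes high in 1 library only turned under both scalings, as given below. The number of genes meeting the thresholds became 10368 with a minimum of 3 FPKM in Tst_1, 723 with 10 FPKM, 1870 with a later limit of 0.5 FPKM and 922 with 0 in all later libraries, as the limits set the count. It became 2224 after trimmed-mean scaling and 1237 after median-of-ratios scaling. Of the 200 members, 114 stayed after trimmed-mean scaling, 90 at the limit of 0.5 FPKM and 108 when clusters were summed, and 179 after median-of-ratios scaling. Since trimmed-mean scaling raises the later libraries, 86 members then reached 1 FPKM in at least 1 of them.

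The median log2 ratios, in the order Tst_2, Tst_3 and Tst_4 vs. Tst_1, were -6.20, -6.21 and -6.76 with a pseudocount of 0.01, and -4.24, -4.25 and -4.31 with 1. They were -5.16, -5.49 and -5.71 after trimmed-mean scaling and -5.12, -5.31 and -5.51 after median-of-ratios scaling. Members whose cluster was more than 2-fold lower in all later libraries numbered 193 with the member included, a count that the thresholds fix in part. Of these, 130 had other genes in the cluster. When only the other genes were summed the number was 98, or 71.5%, against 47.5% for other genes at the same level in Tst_1. For the other genes meeting the thresholds it was 61.4%. The members highest in Tst_3 were 32 after trimmed-mean scaling.

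For the genes high in 1 library only, a minimum of 10 FPKM gave 723 at 1 year, 40 at 3 years, 28 at 5 years and 62 at 10 years. The limit of 0.5 FPKM gave 1870 at 1 year, 291 at 3 years, 527 at 5 years and 581 at 10 years. Trimmed-mean factors gave 2224, 1685, 2708 and 3300, and median-of-ratios factors gave 1237, 476, 539 and 1491. These shifts follow from where the limits fall in each scaled library. The members called between later libraries in Tst_3 vs. Tst_2 were 40 lower and 17 higher after trimmed-mean scaling and 29 lower and 16 higher after median-of-ratios scaling. Over all genes, the share of calls that were higher was 55.5% on the deposited scale, 45.9% after trimmed-mean and 49.3% after median-of-ratios scaling. The numbers below 1 FPKM in the library left out stayed within 1.5 times under every setting tried. For the members listed at 0 only a limit of 0.1 FPKM was tried, as scaling does not change a 0. Below that limit were 44 members in Tst_2, 49 in Tst_3 and 65 in Tst_4. Values below 1 FPKM may rest on few reads, and the reads of single genes are not known here.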
